A study of Mus musculus with 8 samples.

Results

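Flag RIP-seq of mouse ESCs was examined for 10 genes of the naive pluripotency network that lie outside the set of pluripotency factors measured by RT-qPCR: *Nr5a2*, *Klf5*, *Zfp42*, *Nr0b1*, *Prdm14*, *Gbx2*, *Dppa3*, *Dppa5a*, *Tcl1* and *Tdgf1*. They were found by matching Ensembl identifiers to gene symbols, and all 10 were among the 52550 genes of the count table. For *Tdgf1* the description does not fully hold, because the study's list of qPCR primers includes a pair for it, and none of the other 9 symbols is in that list. All samples were *Eif4a2* KO ESCs, made by a deletion meant to remove every isoform, in serum medium with LIF (10 ng/ml) and the 2i inhibitors CHIR99021 (1.5 μM) and PD0325901 (0.5 μM). The KO cells carried either the empty vector (EV) or a transgene for Flag-tagged eIF4A2 (Eif4a2flag). RNA was sequenced from the lysates (input) and after a 3 h precipitation with 5 μg of anti-Flag antibody (RIP), which gave 4 groups of 2 libraries: input EV, input Eif4a2flag, RIP EV, and RIP Eif4a2flag. The labels do not name the isoform, which the study's text gives as full-length eIF4A2. The rescue vectors use the ubiquitously active CAG promoter and were carried on a transposon in clonal lines, and 2 clones served as the replicates, so clone and replicate cannot be told apart. The sources used here do not say where the EV replicates came from, so p-values measure only how these libraries vary, which may be technical. In one field the label of RIP Eif4a2flag replicate 2 reads RIP Eif4a3, whereas its title reads Eif4a2flag.

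Naive ESCs correspond to the preimplantation epiblast and are held in self-renewal by a network of transcription factors that sustain each other's expression. 2i blocks the MEK/ERK pathway and GSK3, and LIF activates STAT3, so that network members such as KLF5 and GBX2 stay on and the cells do not start to differentiate. eIF4A2 is a DEAD-box RNA helicase closely related to eIF4A1. As part of the cap-binding complex eIF4F, such helicases unwind structured 5′ leaders for the scanning ribosome, and most mRNAs are thought to meet them. The RIP over input comparison asks whether a transcript is recovered beyond its level in the cell, and RIP Eif4a2flag over RIP EV asks whether it is recovered beyond beads and antibody alone.

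The libraries were made with a 3′ tag kit that gives about 1 read position per polyadenylated transcript, so levels in CPM, reads scaled to the same total on genes in every library, need no correction for transcript length. A poly(A) signal is the hexamer that directs cleavage upstream of the tail, and tags come from the region near that end. The windows below show this signal and not the positions of the reads. The hexamer AATAAA was found on the sense strand in the last 50 bases of the chosen transcript of 9 of the 10 genes, and in 62.7% of the 10088 protein-coding genes tested. ATTAAA without AATAAA was found in 14.3%. The windows are shown for genes on which results below turn, each with the hexamer in capitals and on GRCm38 (mm10), read 5′ to 3′ on the gene's strand.
*Zfp42*, chr8:43295063-43295090, minus strand: aaaataaaaggaAATAAAacactagaaa
*Nr0b1*, chrX:86195908-86195937, plus strand: atattaacttttAATAAAatttaaggtact
*Prdm14*, chr1:13113457-13113483, minus strand: aaattatatctgAATAAAgacaggctg
*Dppa3*, chr6:122630242-122630271, plus strand: ccagaaatttgtAATAAAagcatttttgtt
*Dppa5a*, chr9:78367056-78367085, minus strand: ctctaaataaaaAATAAAattgaagtgatt
*Tcl1*, chr12:105216760-105216789, minus strand: acggctggatttAATAAAgctttgtagaac
Neither hexamer was in that window of the *Tdgf1* transcript.

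Whether tags from these ends could be placed uniquely was checked against the rest of the genome, because the table holds uniquely aligned reads. *Dppa5a* has the most copies: 245 of its last 500 transcript bases lay in mismatch-free alignments of at least 50 bases, the read length, to another locus. Exact stretches inside imperfect alignments were not added, so 245 is a lower bound. Its counts are those of reads from positions that could be placed uniquely. In all, 12 alignments of its end to other loci had at least 90% identity. *Dppa3* had 4 such alignments, one of them over 502 bases at 97.8% identity in the region of *Dppa3-ps*. *Zfp42* had 2 and *Tdgf1* had 1. None of these 3 genes had an alignment of at least 50 bases without a mismatch. Exact stretches of 50 bases inside their imperfect alignments were not looked for, so unique placement of all their tags is not shown. No alignment passed 90% identity over 50 bases for *Nr5a2*, *Klf5*, *Nr0b1*, *Prdm14*, *Gbx2* and *Tcl1*. *Gbx2* overlaps the antisense transcript *D130058E05Rik* over 946 bases, and without a stated strand setting the reads of these genes cannot be told apart.

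*Eif4a2* itself does not check the labels in these data. The guides used for the KO lie on chromosome 16, and each is shown on the strand that carries its PAM, with the PAM in capitals.
Upstream guide, chr16:23110095-23110114, minus strand, in a coding exon: gagtaccaacaacaatgtgaGGG
Downstream guide, chr16:23112521-23112540, minus strand, in an intron or, in some transcripts, an untranslated exon: gctaacatacaaaatgccttGGG
The study lists the reverse complement of both. A deletion between the cut sites would remove 2426 bases and end 1613 bases before the annotated 3′ end of *Eif4a2*, where 3′ tags arise. *Eif4a2* was at 53.8 and 94.3 CPM in input EV and at 86.8 and 69.1 CPM in input Eif4a2flag. In the precipitates it was at 56.7 and 126 CPM in RIP EV and at 76.7 and 47.4 CPM in RIP Eif4a2flag. These groups overlap and say nothing of the deletion or of the transgene.

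Reads on genes ranged from 2044853 to 11206420 per library and were fewest in RIP EV replicate 1. Reads outside annotated genes made up 45.8% and 29.8% of the reads in RIP EV against 3.30% and 4.13% in RIP Eif4a2flag and 8.58% to 17.6% in the inputs, and their part in the results was not tested. Of the 10754 transcripts with at least 1 CPM in all 4 inputs, which are the transcripts tested, 43.4% had 0 reads in RIP EV replicate 1, 23.7% in replicate 2 and 18.2% in both, against 0.186% in both RIP Eif4a2flag libraries. A further measure of this unevenness is that 23.2% of tested transcripts had at most 1 read in one RIP EV library and at least 30 in the other. The median difference between the 2 libraries of a group, on the log2(CPM + 1) scale, was 1.18 in RIP EV and 0.292 to 0.403 in the other groups. For a transcript with 0 reads in both RIP EV libraries, a floor of 3 counts over the pair allows up to 0.557 CPM. As for the ESC label, the pluripotency factors of the RT-qPCR set summed to 2488 to 3390 CPM in the inputs. The naive genes examined here summed to 1073 to 1267 CPM in the inputs. Of the 8 genes listed for the formative and primed states, 5 passed the filter. These 8 summed to 254 to 481 CPM in the inputs, 283 to 361 CPM in RIP EV and 631 to 752 CPM in RIP Eif4a2flag. *Sox4*, *Dnmt3a* and *Dnmt3b* made up most of these sums. Of the primitive endoderm markers 0 of 7 passed the filter, as did 0 of 3 mesoderm and 0 of 5 fibroblast markers, and in the inputs they summed to at most 1.12, 2.81 and 6.87 CPM. The 5 trophoblast markers, of which 2 passed, summed to 179 to 243 CPM in the inputs, 27.4 to 49.6 CPM in RIP EV and 145 to 185 CPM in RIP Eif4a2flag, and *Tfap2c* made up most of this. The 5 markers of 2-cell-like cells were at 0 in both EV groups. In the Eif4a2flag line they summed to between 0 and 5.19 CPM in the inputs and between 0.802 and 20.7 CPM in the RIP libraries, and the part of these markers in the results was not tested.

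All 10 genes passed the filter. Their mean levels over the 4 inputs spanned from 3.98 CPM for *Gbx2* to 317 CPM for *Tcl1*, and 6 of them lay above 80% of tested transcripts. *Tcl1* (317 CPM), *Dppa5a* (244 CPM), *Tdgf1* (204 CPM), *Klf5* (187 CPM), *Nr5a2* (128 CPM) and *Zfp42* (92.8 CPM) formed this upper group. *Nr0b1* (18.8 CPM), *Dppa3* (10.9 CPM), *Prdm14* (6.38 CPM) and *Gbx2* (3.98 CPM) formed the lower one. Within each of these groups the ranges of neighbours in this order overlapped over the 4 inputs. As transcripts, the 10 were shorter at the median, a description that was not tested. Their median length was 1885 bases against 2964 for all tested protein-coding genes, with a median 5′ UTR of 136 against 169 bases. The GC content of their 5′ UTRs had a median of 54.1% against 65.4%, and ranged from 38.0% in *Nr5a2* to 75% in *Klf5*.

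**Figure D1:**
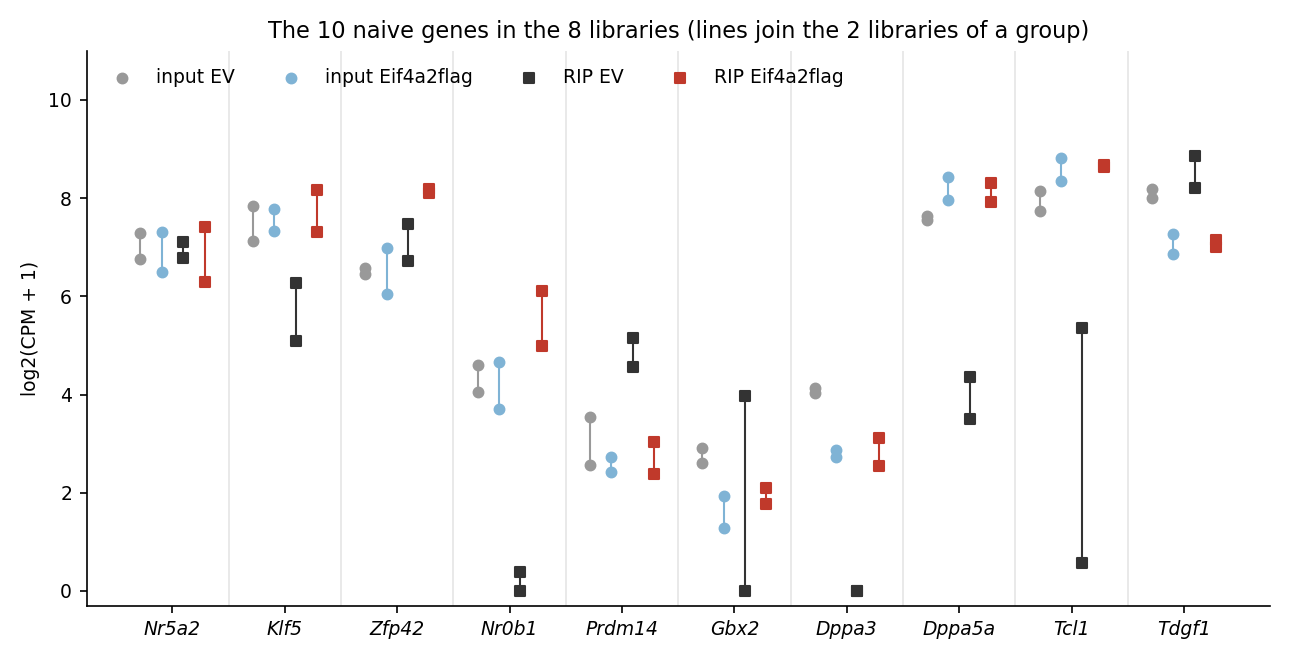
Level of each gene, as log2(CPM + 1), in the 8 libraries. Circles are inputs, squares are RIP libraries, and a line joins the 2 libraries of a group. RIP EV stands lowest for *Nr0b1*, *Dppa3*, *Dppa5a*, *Klf5* and *Tcl1*, and highest for *Prdm14* and *Tdgf1*, while its libraries lie far apart for *Gbx2* and *Tcl1*.

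Compared with RIP EV, RIP Eif4a2flag was higher for *Dppa3*, *Nr0b1* and *Dppa5a* and lower for *Prdm14* and *Tdgf1*. Thus 3 of 10 were called higher, against 24.8% of all tested transcripts, and 2 of 10 lower, against 5.46%. Both RIP Eif4a2flag libraries lay above both RIP EV libraries by CPM for 6 of the 10 (*Klf5*, *Zfp42*, *Dppa3*, *Nr0b1*, *Tcl1* and *Dppa5a*), against 51.9% of tested transcripts. They lay below for 2 of the 10, against 12.1%. The median log2 fold change of the 10 was 1.24 and that of all tested transcripts was 0.64. These calls came from 1 edgeR quasi-likelihood fit on all 8 libraries, adjusted over all tested transcripts at a threshold of 0.05. With the 4 RIP libraries as its only data, edgeR called no tested transcript (0% higher, 0% lower, although 2578 and 571 had an unadjusted p under 0.05), and DESeq2 on the same 4 called 833 and 533. The number of the 10 called higher was 5 without RIP EV replicate 1, against 41.5% of tested transcripts, and 7 without RIP EV replicate 2, against 58.1%. The number called lower fell to 0 without either RIP Eif4a2flag library, against 1.26% and 1.65%, and to 1 without any 1 of the inputs, against 3.71% to 3.81%.

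Relative to their own input, the RIP Eif4a2flag libraries showed no call for any of the 10 genes. The share of tested transcripts called was 0% higher and 0.0558% lower (6 transcripts) in the fit on all 8 libraries, and 331 and 632 had an unadjusted p under 0.05. The only gene of the 10 with an unadjusted p under 0.05 was *Zfp42*. For 2 of the 10, *Zfp42* and *Nr0b1*, both RIP values exceeded both input values, against 45.8% of tested transcripts, and for 0 of the 10 both were below, against 18.7%. On TMM-scaled sizes this last count was 2, against 29.9%. The median log2 fold change was -0.18 for the 10 and 0.02 for all tested transcripts. Fitted to the 4 Eif4a2flag libraries alone, edgeR called 1 of the 10 higher, against 8.44%, and 0 lower, against 8.46%.

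The 3 genes called higher over RIP EV were also those in which RIP EV was called lower than its own input. In RIP EV over input EV, 3 of the 10 were called lower (*Dppa3*, *Nr0b1* and *Dppa5a*), against 26.3% of tested transcripts, and 0 were called higher, against 4.5%. DESeq2 on all 8 libraries called 1 higher, *Prdm14*, against 10% of tested transcripts. By CPM, both RIP EV libraries lay below both inputs for 5 of the 10, against 44.9%, and above for 3, *Prdm14*, *Zfp42* and *Tdgf1*, against 14.6%. Without RIP EV replicate 1 the number lower was 5, against 42.3%, and without replicate 2 it was 6, against 60.3%. In each case 1 was higher, against 17.7% and 16.6%. Both comparisons use the RIP EV libraries. Tested directly, RIP over input was higher in the Eif4a2flag line than in the EV line for 3 of the 10, again *Dppa3*, *Nr0b1* and *Dppa5a*, against 19.2%, and lower for 0, against 2.1%. Leaving out either library of RIP Eif4a2flag, either library of input Eif4a2flag, or input EV replicate 1 ended all 3 of these calls. Without RIP EV replicate 2 there were 6, against 54%.

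**Figure D2:**
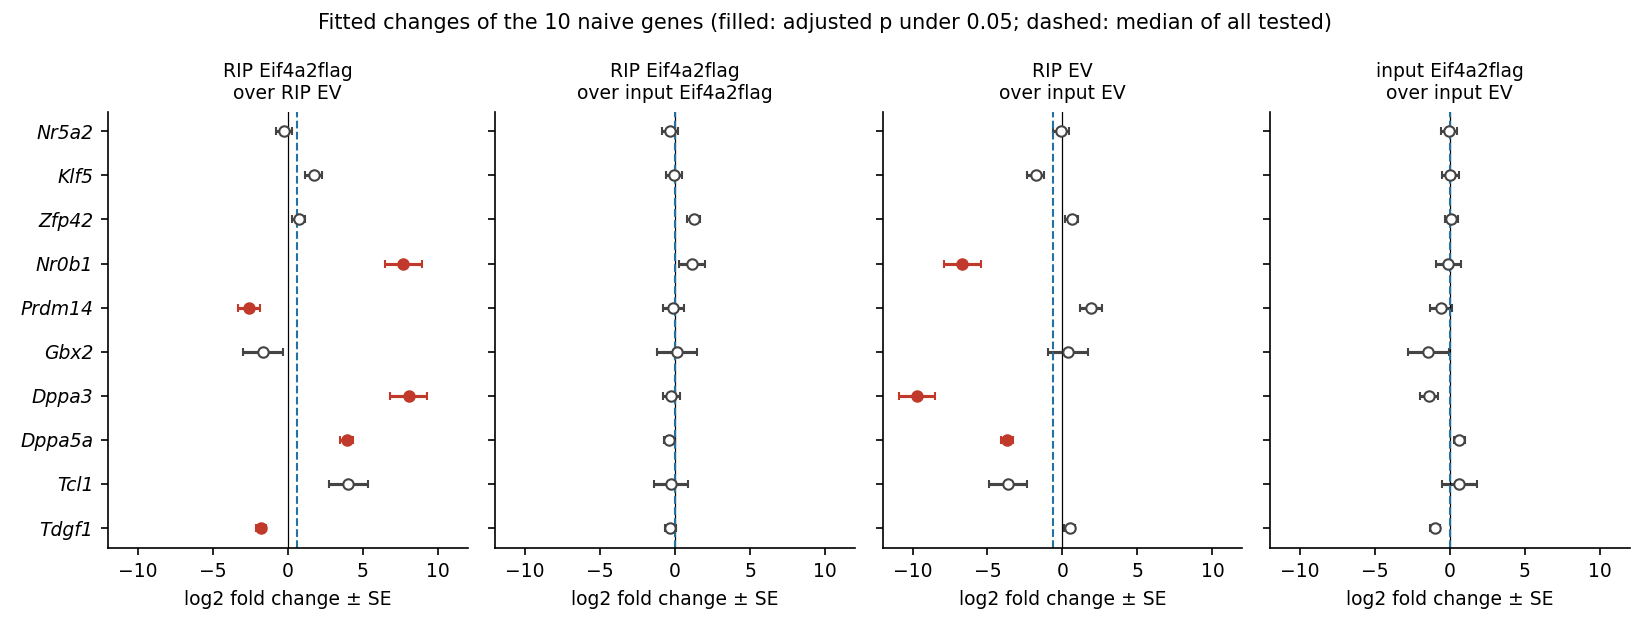
Fitted log2 fold change of each gene with its SE in 4 comparisons, from the edgeR fit on all 8 libraries. Filled points passed an adjusted p of 0.05, and the dashed line is the median of all 10754 tested transcripts. Points in RIP Eif4a2flag over RIP EV reach 8.07 for *Dppa3* and -2.59 for *Prdm14*, whereas in RIP Eif4a2flag over its input they run from -0.39 to 1.25 and none is filled. For *Dppa3* and *Nr0b1* the size depends on the prior count, since RIP EV held 0 and 1 reads.

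*Zfp42* (ENSMUSG00000051176; mm10 chr8:43295063-43306980), also called Rex1, encodes a zinc-finger protein and is a standard marker of the naive state. The parental ESCs carry a reporter driven by the Rex1 promoter, and tags cannot tell which allele they came from. *Zfp42* was at 94.0 and 86.8 CPM in input EV, at 125 and 65.5 CPM in input Eif4a2flag, at 104 and 176 CPM in RIP EV, and at 288 and 274 CPM in RIP Eif4a2flag. The 2 RIP Eif4a2flag libraries were the highest of all 8 and differed from each other by only 1.05-fold, and RIP EV also lay above its inputs. RIP Eif4a2flag over input was 1.25 ± 0.44 (log2 fold change ± SE), larger than in 93% of tested transcripts, with an edgeR adjusted p of 0.478. It was called in the fits to the 4 Eif4a2flag libraries by edgeR (1.24, adjusted p = 0.0383) and DESeq2 (1.21, adjusted p = 0.00911), and by limma voom with a quality weight per group (1.34, adjusted p = 0.0105). DESeq2 on all 8 libraries gave an adjusted p of 0.118. Leaving out RIP EV replicate 1 or 2, which are not part of this comparison but share its estimate of spread, gave adjusted p-values of 0.0283 and 0.0233. Over RIP EV the change was 0.73 ± 0.44 with an edgeR adjusted p of 0.28. The difference of RIP over input between the lines was 0.64 ± 0.62 with an edgeR adjusted p of 0.609.

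*Nr0b1* (ENSMUSG00000025056; chrX:86191764-86195947) encodes DAX1, an orphan nuclear receptor without a classical DNA-binding domain that acts mainly as a repressor. It was at 23.1 and 15.6 CPM in input EV and at 24.2 and 12.05 CPM in input Eif4a2flag. RIP EV held 0 reads in replicate 1 and 1 read in replicate 2, and RIP Eif4a2flag was at 68.2 and 30.8 CPM. The RIP Eif4a2flag libraries were the highest and the RIP EV libraries the lowest of the 8. Pooled over libraries, 1071 reads in RIP Eif4a2flag stood against 1 in RIP EV, a ratio of 273 with an exact 95% interval of 48.8 to 10770 that covers counting error only. Without RIP EV replicate 1 the ratio was 169 (30.3 to 6686), and without replicate 2, which leaves 0 reads, RIP Eif4a2flag was at least 34.5-fold higher, against a floor of 3 counts. Over RIP EV the edgeR adjusted p was 0.00669. This call was lost with limma voom (adjusted p = 0.162) and in edgeR on the 4 RIP libraries (adjusted p = 0.065). It held in the other 7 of the 9 alternatives that did not leave out 1 library. Over its own input the change was 1.13 ± 0.85 with an edgeR adjusted p of 0.89, and the 2 RIP libraries differed 2.22-fold from each other. As background for the near absence from RIP EV, 20.6% of tested transcripts had at most 1 read in each RIP EV library.

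*Klf5* (ENSMUSG00000005148; chr14:99298691-99315036), a Krüppel-like factor of the naive network, was at 229 and 140 CPM in input EV and at 219 and 160 CPM in input Eif4a2flag. It was at 33.3 and 75.9 CPM in RIP EV and at 157 and 286 CPM in RIP Eif4a2flag. RIP EV was low in both libraries, and the other groups overlapped. RIP Eif4a2flag over RIP EV was 1.75 ± 0.57 and did not pass the threshold (edgeR adjusted p = 0.0597), but it did when RIP EV replicate 1 or 2 was left out (1.30 and 2.55) and in DESeq2 on all 8 libraries, with library size alone and without a filter on low counts. Over input it was -0.07 ± 0.55.

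*Nr5a2* (ENSMUSG00000026398; chr1:136842571-136960448), an orphan nuclear receptor that can activate *Pou5f1*, showed no separation in any comparison. It was at 156 and 107 CPM in input EV, at 158 and 89.5 CPM in input Eif4a2flag, at 110 and 137 CPM in RIP EV, and at 77.3 and 170 CPM in RIP Eif4a2flag. The group means lay between 123 and 132 CPM, and the RIP Eif4a2flag libraries alone spanned the values of all the others. Its log2 fold changes ranged from -0.31 ± 0.53 over input to -0.08 ± 0.53 between the inputs.

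*Prdm14* (ENSMUSG00000042414; chr1:13113457-13127163) encodes a PR-domain protein that represses FGF signalling and DNA methyltransferase genes in naive cells. It was at 4.95 and 10.6 CPM in input EV and at 5.63 and 4.34 CPM in input Eif4a2flag. It was at 22.5 and 34.4 CPM in RIP EV and at 7.23 and 4.21 CPM in RIP Eif4a2flag. RIP EV stood above all 6 other libraries, which overlapped one another. RIP Eif4a2flag over RIP EV was -2.59 ± 0.74 (edgeR adjusted p = 0.0397), and only 4.13% of tested transcripts had a lower value. Over input it was -0.11 ± 0.71. RIP EV over input EV was 1.88 ± 0.73 with an edgeR adjusted p of 0.102. The call against RIP EV held in 5 of 17 alternatives, among them leaving out either RIP EV library. It was lost on leaving out any 1 of the 4 inputs or of the 2 RIP Eif4a2flag libraries, with library size alone, without a filter, with the replicate block, with limma voom and on the 4 RIP libraries.

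*Gbx2* (ENSMUSG00000034486; chr1:89927956-89931179), a homeobox gene downstream of LIF and STAT3, was the lowest of the 10. It was at 5.09 and 6.55 CPM in input EV and at 2.81 and 1.45 CPM in input Eif4a2flag. RIP EV held 0 reads in replicate 1 and 49 in replicate 2 (14.6 CPM), and RIP Eif4a2flag was at 3.3 and 2.41 CPM. No direction over RIP EV can be given: the fitted change was -1.65 ± 1.35 (edgeR adjusted p = 0.433), -2.60 and called lower without RIP EV replicate 1, and 7.06 and called higher without RIP EV replicate 2.

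*Dppa3* (ENSMUSG00000046323; chr6:122626410-122630272), also called Stella, encodes a protein that limits DNA methylation in germ cells and naive ESCs. It was at 15.3 and 16.5 CPM in input EV, at 6.28 and 5.62 CPM in input Eif4a2flag, at 0 in both RIP EV libraries, and at 7.67 and 4.81 CPM in RIP Eif4a2flag. Against the floor of 3 counts over both RIP EV libraries, RIP Eif4a2flag was at least 11.4-fold higher and input EV at least 28.1-fold higher than RIP EV. Without RIP EV replicate 1 or 2, the former bound was 7.05 and 4.31 and the latter was 17.5 and 10.7. The edgeR adjusted p over RIP EV was 0.00698. This call was lost with limma voom (adjusted p = 0.172) and in edgeR on the 4 RIP libraries (adjusted p = 0.065). DESeq2 on the 4 RIP libraries gave no adjusted p. The call held in 6 of the 9 alternatives that did not leave out 1 library. RIP Eif4a2flag did not separate from its own input (-0.24 ± 0.60, edgeR adjusted p = 1). Like *Dppa3*, 18.2% of tested transcripts had no read in either RIP EV library.

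*Dppa5a* (ENSMUSG00000060461; chr9:78367052-78368177), also called Esg1, encodes a KH-domain RNA-binding protein. It was at 199 and 186 CPM in input EV, at 248 and 344 CPM in input Eif4a2flag, at 10.3 and 19.4 CPM in RIP EV, and at 316 and 240 CPM in RIP Eif4a2flag. RIP EV was far below the other 6 libraries, with 86 reads in all. RIP Eif4a2flag over RIP EV was 3.94 ± 0.42 (edgeR adjusted p = 0.00662), and leaving out a RIP EV library gave 3.59 and 4.56. Over input it was -0.39 ± 0.37 (edgeR adjusted p = 0.966). RIP EV over input EV was -3.70 ± 0.42 (edgeR adjusted p = 0.00805). The call over RIP EV was lost with limma voom (adjusted p = 0.151) and in edgeR on the 4 RIP libraries (adjusted p = 0.065). It remained in the other 7 alternatives that did not leave out 1 library, among them DESeq2 on the 4 RIP libraries. Over the fits that left 1 library out, the change ran from 3.59 to 4.56.

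*Tcl1* (ENSMUSG00000041359; chr12:105216750-105222793), which encodes a coactivator of AKT kinases, was the most abundant of the 10 in the inputs. It was at 283 and 212 CPM in input EV, at 325 and 450 CPM in input Eif4a2flag, and at 410 and 397 CPM in RIP Eif4a2flag. RIP EV held 1 read in replicate 1 and 133 in replicate 2 (0.489 and 39.8 CPM). RIP EV was thus lowest in both libraries, and they differed 81.3-fold from each other. RIP Eif4a2flag over RIP EV was 4.04 ± 1.29 (edgeR adjusted p = 0.0581), and 3.09 and 9.44 without RIP EV replicates 1 and 2, when it passed the threshold. It passed in 6 of 17 alternatives, the others being library size alone, no filter on low counts, and DESeq2 on all 8 and on the 4 RIP libraries. Over input it was -0.24 ± 1.13.

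*Tdgf1* (ENSMUSG00000032494; chr9:110939603-110946158) encodes Cripto, a cell surface coreceptor for Nodal and the only signalling receptor component of the 10. It was at 257 and 292 CPM in input EV, at 154 and 115 CPM in input Eif4a2flag, at 466 and 295 CPM in RIP EV, and at 127 and 142 CPM in RIP Eif4a2flag. The 4 EV libraries were all above the 4 Eif4a2flag libraries. RIP Eif4a2flag over RIP EV was -1.79 ± 0.35 (edgeR adjusted p = 0.00979), and the inputs differed in the same direction by -1.01 ± 0.34 (edgeR adjusted p = 1). Over its own input RIP Eif4a2flag was at -0.31 ± 0.34, and the difference of RIP over input between the lines was -0.78 ± 0.48 (edgeR adjusted p = 0.364). The call over RIP EV was lost when either library of RIP Eif4a2flag was left out (edgeR adjusted p = 0.0886 without replicate 1 and 0.0617 without replicate 2), in limma voom and in edgeR on the 4 RIP libraries. The study's primers for this gene are shown because a qPCR of it would not read the same part of the transcript as the tags.
Forward, chr9:110943198-110943218: gaccagaaagaacctgccgta
Reverse, chr9:110942600-110942620: tgcaagtccctccattcagac
Both lie in coding exons and would give a product of 112 bases, which ends 1397 bases before the 3′ end of the transcript. Each also has an exact match in *Tdgf1-ps1*, which held 66 reads in RIP EV replicate 2 and at most 2 in every other library.

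Between the inputs, which compare the lines before precipitation, none of the 10 genes was called, and neither was any other tested transcript (0% in either direction). At an unadjusted p under 0.05 there were 75 higher and 59 lower among all transcripts and 1 among the 10, *Tdgf1*. With DESeq2 on all 8 libraries there were 13 higher and 3 lower calls, none of them among the 10. By CPM, 3 of the 10 were lower in both Eif4a2flag inputs than in both EV inputs (*Dppa3*, *Gbx2* and *Tdgf1*), against 17.3% of tested transcripts, and 2 were higher (*Tcl1* and *Dppa5a*), against 19.8%. The differences of *Dppa3* (-1.40 ± 0.61) and *Gbx2* (-1.43 ± 1.38) did not pass the test. In such bulk samples, fewer cells that express a gene and less RNA per cell cannot be told apart.

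For comparison, 10 pluripotency factors of the RT-qPCR set and 19 other ESC genes were tested in the same fit. In RIP Eif4a2flag over RIP EV, 24.8% of all tested transcripts were called higher and 5.46% lower, with a median log2 fold change of 0.64. Of the 10 RT-qPCR genes 3 were called higher and 0 lower, with a median of 0.51. Of the 19 other ESC genes 1 was called higher and 3 lower, with a median of 0.46. Among the 5 tested genes of the formative and primed states 1 was called higher, *Otx2*, and 0 lower, with a median of 1.36. In RIP Eif4a2flag over input, none of these genes was called, against 0% higher and 0.0558% lower of all tested transcripts. The medians of the 3 lists were 0.10, 0.30 and 0.41, against 0.02 for all tested transcripts. The highest and lowest of the RT-qPCR genes in that comparison were *Klf4* (1.32 ± 0.72) and *Pou5f1* (0.63 ± 1.00), and *Tfcp2l1* (-0.86 ± 0.49) and *Nanog* (-0.65 ± 0.54). Those of the other ESC genes were *Tet1* (1.37 ± 0.67) and *Tet2* (1.04 ± 0.41), and *Dppa2* (-0.97 ± 0.62) and *Dppa4* (-0.90 ± 0.48). *Meg3*, a noncoding RNA, was at -1.51 ± 0.31 over input and at -4.63 ± 0.36 over RIP EV, where it was called lower (edgeR adjusted p = 0.00662). Its mean was 6028 CPM in RIP EV against 931.5 CPM in input EV, so RIP EV lay far above its own input. It was 293.6 CPM in RIP Eif4a2flag and 678.9 CPM in input Eif4a2flag. *Zfp42* and *Nr0b1* lay beside *Klf4* in size, and the remaining 8 naive genes lay between -0.39 and 0.12.

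**Figure D3:**
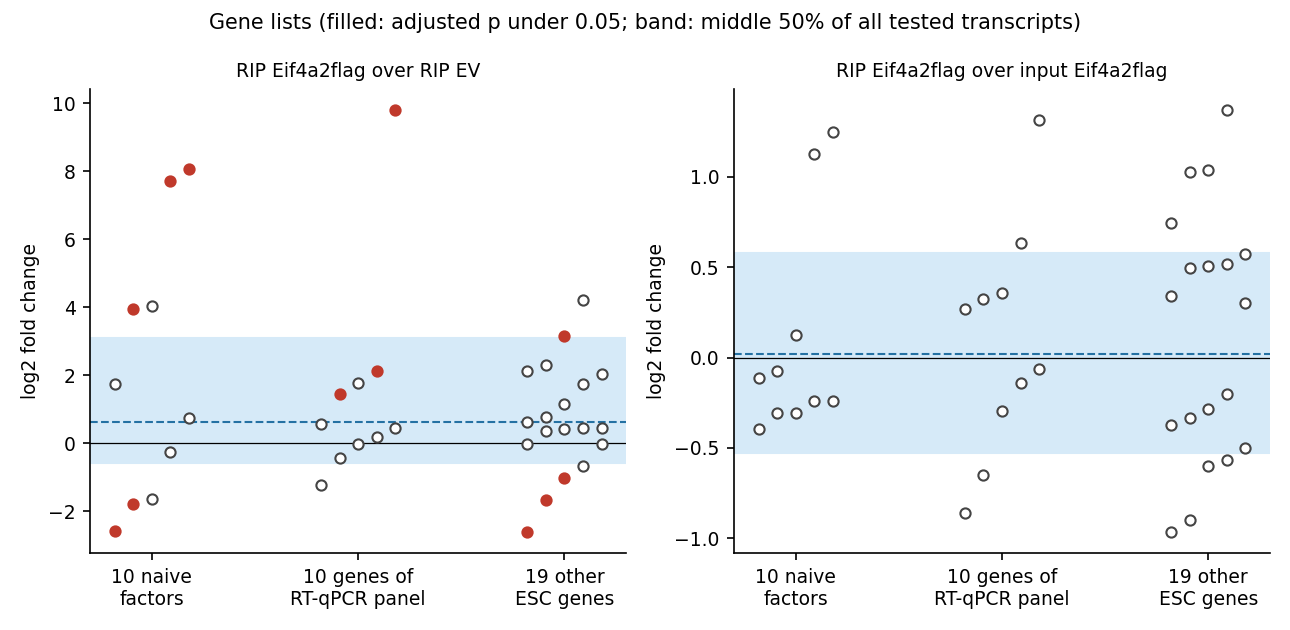
Log2 fold change of each gene in 3 lists, in RIP Eif4a2flag over RIP EV (left) and over input Eif4a2flag (right, on a narrower axis). Filled points passed an adjusted p of 0.05 in edgeR, the dashed line is the median of all tested transcripts and the band holds their middle 50%. Each list spreads to both sides of 0 in both panels, and 8 of the 10 naive genes lie inside the band on the right.

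*Klf5*, *Dppa3*, *Nr0b1*, *Tcl1* and *Dppa5a* were grouped because RIP EV stood lowest for them, and *Prdm14* was set against them because it stood highest. Correlations over the 8 libraries include RIP EV, so their signs follow in part from that choice. By CPM, both RIP EV libraries lay below both inputs for 44.9% of tested transcripts. The Pearson correlation of log2(CPM + 1) within pairs of these 5 genes ranged from 0.78 for *Klf5* and *Dppa3* to 0.94 for *Nr0b1* and *Dppa5a*. With these 5 genes, *Prdm14* had correlations from -0.91 (*Dppa5a*) to -0.78 (*Dppa3*). The libraries share depth and the RIP EV group. The tested transcript most alike in pattern was *Uspl1* for *Zfp42* (r = 0.978), *Trmt12* for *Nr0b1* (r = 0.994), *Rnh1* for *Dppa5a* (r = 0.997) and *Vps4b* for *Tcl1* (r = 0.998). It was *Nefh* for *Prdm14* (r = 0.984), *Dennd4a* for *Klf5* (r = 0.965), *Ptgs1* for *Gbx2* (r = 0.994) and *Ccnt2* for *Nr5a2* (r = 0.794). For *Dppa3* and *Tdgf1* these were the predicted genes *Gm13436* (r = 0.990) and *Gm26448* (r = 0.957). Each r describes 8 libraries and is the highest among all other tested transcripts.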

How the data were processed

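The 8 libraries were made with QuantSeq 3′ mRNA-seq (FWD). The authors trimmed the reads (bbduk), aligned them (STAR, version 2.5.3a, mm10) and counted uniquely aligned reads per gene (HTSeq, version 0.11.2), and the deposited values are raw counts. Neither the strand setting nor the annotation release is given in the sources used here. The 5 summary lines of the counter were left out of totals and tests. They held reads with more than 1 alignment (27.0% to 52.1% per library) and reads outside annotated genes (3.30% to 45.8%). Of 52550 identifiers, 52403 matched GENCODE M21 (GRCm38), which supplied names, positions and transcripts. The chosen transcript was the protein-coding one with the longest coding sequence. Sequence copies were sought with blastn (version 2.17.0).

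Transcripts with at least 1 CPM in all 4 inputs were tested (10754) with edgeR (version 4.0.16, R version 4.3.3), using TMM factors and quasi-likelihood tests on all 8 libraries, Benjamini-Hochberg adjustment and a threshold of 0.05. The SE is the log2 fold change divided by the root of its F statistic. With 2 libraries a group, calls rest on the spread that edgeR shares between transcripts. Alternatives used DESeq2 (version 1.42.0), limma voom (version 3.58.1), other factors and filters, a replicate block, only the libraries compared, and leaving out each library. The reads carry no molecular identifiers, so intervals and floors cover counting error only. CPM in RIP libraries is relative to the RNA recovered.

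The 10 genes and the gene lists were chosen with earlier results of these data known. All 10 genes are named, along with *Eif4a2*, *Meg3*, the 2 highest and 2 lowest genes over input of each list compared, and the transcript most alike to each gene. *Tfap2c*, *Sox4*, *Dnmt3a*, *Dnmt3b* and genes named with a copy or an overlap were named after their values were seen.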

Additional observations from a re-analysis of the deposited data

Results flagged for a closer look

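The RIP over input change differed between the lines by edgeR's test of that difference for 3 of the 10 genes. The log2 difference, Eif4a2flag minus EV, was 9.47 for *Dppa3*, 7.80 for *Nr0b1* and 3.31 for *Dppa5a*, each with an edgeR adjusted p of 0.0176, and 19.2% of all tested transcripts were called higher in this test. Leaving out either RIP Eif4a2flag library, either input Eif4a2flag library, or input EV replicate 1 ended all 3 calls. For *Dppa3* and *Nr0b1* the size is not a measured fold, since RIP EV held 0 and 1 reads. In all 3 genes the EV line carried most of it: RIP EV over input EV was called lower, while RIP Eif4a2flag over its input was -0.24, 1.13 and -0.39 and was not called.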

How the results depend on the processing

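The 11 calls on single genes kept their direction under every alternative run. Of the 50 changes of a gene in a comparison, 33 kept their direction throughout and 17, none of them called, did not, and the cause was not tested.

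Percentages here are shares of all transcripts tested in the same fit. RIP Eif4a2flag over RIP EV gave 3 higher (24.8%) and 2 lower (5.46%). Library size alone gave 5 (26.6%) and 1 (4.01%), and no filter on low counts gave 5 (16.8%) and 1 (5.13%). DESeq2 on all 8 libraries gave 5 higher (30.4%). There were 0 and 0 in limma voom (0% and 0.0837%) and in edgeR on the 4 libraries (0% and 0%). DESeq2 on the 4 libraries gave 1 lower (4.96%). RIP EV over input EV gave 0 higher (4.5%) and 3 lower (26.3%), and 5 lower without the filter (15.8%). DESeq2 on all 8 libraries gave 1 higher (10%) and 5 lower (32%). There were 0 lower in limma voom (0%) and in edgeR on the 4 libraries (0%), and 1 lower in DESeq2 on these (4.68%). RIP Eif4a2flag over input gave 0 higher (0%) and 0 lower (0.0558%). It gave 1 higher in limma voom (8.9%) and in edgeR (8.44%) and DESeq2 (9.27%) on the 4 libraries. The difference between the lines gave 3 higher (19.2%) and 0 lower (2.1%), with 0 higher in limma voom (0%) and 1 lower in DESeq2 (5.65%). With TMM scaling, the number of RIP Eif4a2flag below both inputs by CPM went from 0 (18.7%) to 2 (29.9%).

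If replicate numbers stand for clones, input and RIP of the Eif4a2flag line are paired. Deviations within groups showed little shared pattern by replicate number (correlations from -0.0688 to 0.127). Such values cannot show that the samples were unpaired. With the replicate block, 1 of the 10, *Tdgf1*, was lower in RIP Eif4a2flag over RIP EV, against 3.96% of tested transcripts. No other count of these genes moved by over 1.5 times.

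Leaving out 1 library gave 3 to 7 higher and 0 to 3 lower over RIP EV, 0 to 1 higher over input Eif4a2flag, 0 to 1 higher and 3 to 6 lower for RIP EV over input, and 0 to 6 higher and 0 to 1 lower for the difference. By CPM, RIP Eif4a2flag then gave 3 to 5 above and 1 to 3 below its inputs (chosen after seeing the data). For these counts by CPM with a library left out, the shares over all tested transcripts were not computed.

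Reversals with library size alone were small. Over input Eif4a2flag they were *Dppa3* 0.070, *Klf5* 0.23, *Prdm14* 0.20, *Tcl1* 0.058 and *Tdgf1* 0.00018, for *Nr5a2* 0.0030 over RIP EV and 0.091 in the difference, and for *Gbx2* 0.055 in the difference. With limma voom they were *Gbx2* 0.15 over RIP EV, -1.46 for RIP EV over input and 1.62 in the difference, and *Zfp42* -0.0063 between inputs.

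Reversals on leaving out a library gave these ranges. Over RIP EV they were -0.85 to 0.32 for *Nr5a2* and -2.60 to 7.06 for *Gbx2*. Over input Eif4a2flag they were -0.97 to 0.20 for *Nr5a2*, -0.49 to 0.25 for *Prdm14*, -0.55 to 0.35 for *Klf5*, -0.55 to 0.084 for *Dppa3* and -0.31 to 0.69 for *Gbx2*. For RIP EV over input they were -0.43 to 0.26 for *Nr5a2* and -8.31 to 1.30 for *Gbx2*. Between inputs they were -0.58 to 0.30 for *Nr5a2*, -0.33 to 0.53 for *Klf5*, -0.48 to 0.50 for *Zfp42* and -0.71 to 0.35 for *Nr0b1*. In the difference they were -0.77 to 0.40 for *Nr5a2* and -1.16 to 8.50 for *Gbx2*.

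Counts over all transcripts moved too. Over RIP EV, 2664 higher and 587 lower became 0 and 9 in limma voom and 3270 and 1128 in DESeq2 on all 8 libraries, 4467 and 1955 when RIP EV replicate 1 was left out, and 6248 and 1741 when replicate 2 was. Over input Eif4a2flag, 0 higher and 6 lower became 957 and 1038 in limma voom, 908 and 910 in edgeR on the 4 libraries, 274 and 430 in DESeq2 on all 8, and 997 and 1098 in DESeq2 on 4. Library size alone moved the median over RIP EV from 0.64 to 0.91, no filter to 1.59 and limma voom to 1.70, and leaving out RIP EV replicate 2 to 3.07. Depth limits RIP EV most, where 1 read is worth up to 0.489 CPM.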
